A study of Mus musculus with 22 samples.

Results

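The genes described here are 31 mouse genes of cholesterol and fatty acid synthesis, of the 52636 genes measured by RNA-seq in 22 libraries of duodenal organoids. The members were listed by name, with earlier results of these data known. They comprise 7 genes of the mevalonate steps, 12 enzymes that lead from squalene to cholesterol, 5 regulators, the sterol carrier Stard4 and 6 genes of fatty acid synthesis. Each name matched 1 row of the deposited table. All 31 passed the filter on low values (a value of 10 in 3 of the libraries of the comparison) in each of the 11 comparisons.

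The study asked how normal intestinal epithelium responds to cold atmospheric plasma (CAP), a partly ionised gas that generates reactive oxygen and nitrogen species, and whether the way of applying it matters. Organoids, epithelial structures grown in a gel from isolated crypts, came from 4 adult wild-type mice, 1 line per mouse, with no transgene or deletion in any group. Lines 1 to 4 (title codes CD1, WT2, 1-20 and 2-20; passages 12, 14, 4 and 4 by the labels) were each sampled once without treatment. Lines 1, 2 and 4 were sampled once more in every one of the 6 treated groups, so each treated group holds 3 libraries from the same mice. Treated libraries of line 4 carry the title code 2, which is taken here as 2-20.

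The plasma jet ran for 60 s at 50 W. For direct CAP the culture itself was treated at day 1 after replating, and its medium was renewed 30 min or 24 h later. By the study's design fresh medium followed until collection at day 3, so 30 min and 24 h are lengths of exposure here. The study elsewhere words 30 min as a time after treatment. Indirect CAP means that untreated organoids were grown in medium taken from a treated culture. Plasma-activated medium (PAM) is medium treated in the absence of organoids. Indirect CAP and PAM were given from day 1, followed by fresh medium until collection at day 3, or from day 2 until collection. The treated media were made at day 1. They were freshly made when given from day 1 and 1 day old when given from day 2. The labels give 0.5 h and 24 h for these groups where the study's methods give days 1 and 2, and the days are used here.

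Values are reads per gene scaled to 20 M per library (M for mega) and are not divided by gene length. The depth behind them, estimated from the spacing of low values, was 19.38 to 28.68 M reads per library. The labels call the cells stem cells. The summed value of 7 epithelial markers was between 115365 and 197961 in every library, and that of 12 markers of blood, stroma, endothelium, muscle and fat was between 43 and 113, with 7 of those 12 below 10 throughout. The untreated libraries of lines 1 and 2 correlated less with treated libraries of their own line (median r of 0.075 and 0.132 after removal of group means) than with the other line of the pair (0.541 and 0.353). Whether their labels are exchanged was not tested. Fits that do not use the line would not be altered by an exchange. Counts are also given without both. These rest on 2 controls, and no other pair of controls was left out. Loss of power and dependence on these libraries therefore cannot be told apart.

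Cholesterol is built from acetyl-CoA through mevalonate and squalene, and fatty acids from the same precursor through malonyl-CoA. Both routes are switched on by the transcription factors SREBP-1 and SREBP-2, which Srebf1 and Srebf2 encode. The escort protein SCAP carries them out of the endoplasmic reticulum when sterols are scarce, and the INSIG proteins hold them back when sterols are plentiful. The small intestine is among the main sites of sterol synthesis in the body, and proliferating crypt cells and absorptive enterocytes both make sterols.

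In untreated organoids all members were well expressed. Compared per kilobase of exon, Scd2, a stearoyl-CoA desaturase, was the most abundant at 6270 reads per 20 M and kilobase, ahead of Insig1 (2740), Hmgcs1 (2140), Cyp51 (1700) and Fasn (1640). Acaca, acetyl-CoA carboxylase, was the lowest at 164, below Insig2 (265) and Scap (295). The length merges all annotated exons of a gene, whether or not their transcripts are in use. Genes with long merged exons, such as Acaca (17074 bases) and Lss (10787 bases), may therefore rank too low. Other genes' exons covered over 10% of the exon bases of Fdps (26.7%), Fdft1 (18.3%), Scap (13.2%), Hmgcs1 (12.1%), Tm7sf2 (12.1%) and Lbr (10.7%). Whether strand was used in counting is not given in the sources used here, so the reads of these 6 genes are less certain.

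Exposure from day 2 gave the most changes, and in both directions within the same pathway. Enzymes between squalene and cholesterol divided: 6 of 12 were higher and 5 of 12 were lower than untreated in both day 2 groups, while genes of fatty acid synthesis were mostly lower. Of all genes tested, 20.3% rose and 23.5% fell with indirect CAP from day 2, and 18.5% rose and 29.1% fell with PAM. After exposure for 24 h from day 1 only lower calls were made, where 14.8% of all genes rose and 18.7% fell with these libraries pooled. After direct CAP for 30 min no member was called, where 1 of all 17731 genes tested was. In what follows a gene is called when its adjusted p was under 0.05 (limma's trended test on log2(value + 1), Benjamini-Hochberg over all genes tested), and past the study's threshold when its adjusted p was under 0.01 and its log2 fold change, higher or lower, was 1 or more in size. Shares over all genes belong to this fit unless another is named. Counts under other settings that have no such share beside them show only how the count depends on the setting.

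With PAM from day 2, 9 members rose (29.0%, where 18.5% of all 17694 genes tested rose) and 14 fell (45.2%, where 29.1% of all genes fell). Hmgcs1, Pmvk, Fdft1, Lss, Cyp51, Msmo1, Hsd17b7, Sc5d and Insig2 were higher, whereas Acat2, Mvd, Tm7sf2, Lbr, Nsdhl, Ebp, Dhcr7, Srebf1, Stard4, Acly, Acaca, Fasn, Scd1 and Scd2 were lower. The median log2 fold change of the members was -0.26 and that of all genes tested -0.12. Median-of-ratios scaling moved the latter to -0.02 and gave 11 members higher and 13 lower. Past the study's threshold were 3 members (9.68%), Lbr, Acaca and Dhcr7, all lower, against 17.3% of all genes. That last count was 1 without the line 4 library of this group or without any of the 4 untreated libraries, and 5 without its line 1 library. Leaving out the untreated libraries of lines 1 and 2 together, which leaves 2 controls, gave 0 past the threshold, 5 higher and 8 lower.

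With indirect CAP from day 2, 7 members rose (22.6%, where 20.3% of all 17860 genes tested rose) and 15 fell (48.4%, where 23.5% of all genes fell). The higher members were Fdft1, Lss, Cyp51, Msmo1, Hsd17b7, Sc5d and Insig2. The lower members were Acat2, Mvk, Idi1, Tm7sf2, Lbr, Nsdhl, Ebp, Dhcr7, Srebf1, Stard4, Acly, Acaca, Fasn, Scd1 and Scd2. Their median log2 fold change was -0.25, beside -0.01 over all genes. Lbr alone (3.23%) was past the study's threshold, against 11.9% of all genes. Without the untreated libraries of lines 1 and 2 the counts were 7 higher and 10 lower. Both day 2 groups were compared with the same 4 untreated libraries, so their changes are not independent of each other.

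In the 9 libraries of the pooled day 1 comparison, whose exposure lasted 24 h (direct CAP for 24 h, indirect CAP and PAM from day 1), 8 members fell (25.8%, where 18.7% of all 18490 genes tested fell). They were Acat2, Lbr, Dhcr7, Srebf1, Stard4, Acly, Acaca and Scd2. None rose, against 14.8% of all genes, and none was past the study's threshold, against 6.34%. At an unadjusted p under 0.05 there were 11 of 31 members, and 8154 of all 18490 genes. The medians were -0.12 for the members and -0.05 for all genes. Without the untreated libraries of lines 1 and 2 the lower count was 2 (Dhcr7 and Stard4). When the line was taken as a replicate block, since the same mice recur, 9 fell and 1, Hsd17b7, rose. Shares over all genes under this block are not given here.

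Taken group by group, direct CAP for 24 h lowered 8 members (Acat2, Lbr, Dhcr7, Srebf1, Stard4, Acaca, Scd1 and Scd2), 25.8% of them against 10.2% of the 17335 genes tested. It raised none, against 7.05%, and put none past the study's threshold, against 2.17%. The lower count was 3 without the untreated library of line 1, 2 or 4 or the treated library of line 1, 3 with median-of-ratios scaling, and 0 without the untreated libraries of lines 1 and 2 together. Leaving out any library but treated line 2 ended the calls of Srebf1 and Acaca, and leaving out untreated line 1, 2 or 4 or treated line 1 ended that of Scd2. Indirect CAP from day 1 lowered 5 (Acat2, Lbr, Dhcr7, Srebf1 and Stard4), 16.1% of them against 10.4% of 17818 genes. It raised none, against 10.2%, and put none past the threshold, against 1.31%. Its lower count was 9 without the treated library of line 4 and 2 without the untreated libraries of lines 1 and 2.

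PAM from day 1 lowered 9 members (Acat2, Mvd, Idi1, Lbr, Dhcr7, Srebf1, Stard4, Acaca and Scd2), 29.0% of them against 26.6% of the 17357 genes tested. None rose, against 15.2%, and none was past the study's threshold, against 10.2%, with 1 past it when any of the 3 treated libraries was left out. The median of all genes was -0.13 in this group. Median-of-ratios scaling moved it to -0.01 and gave 3 members higher and 5 lower, so the split between higher and lower depended on the scaling here. With the line as a replicate block 2 members rose (Sc5d and Insig2) and 11 fell. The shares over all genes under that block are not given here. After direct CAP for 30 min none of the 31 members was called, where 0.00564% of the 17731 genes tested (1 gene) was. At an unadjusted p under 0.05 there were 3 members and 4415 of all genes. The largest difference there was that of Pmvk, at -0.39 ± 0.16 (SE; adjusted p = 0.192).

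**Figure D1:**
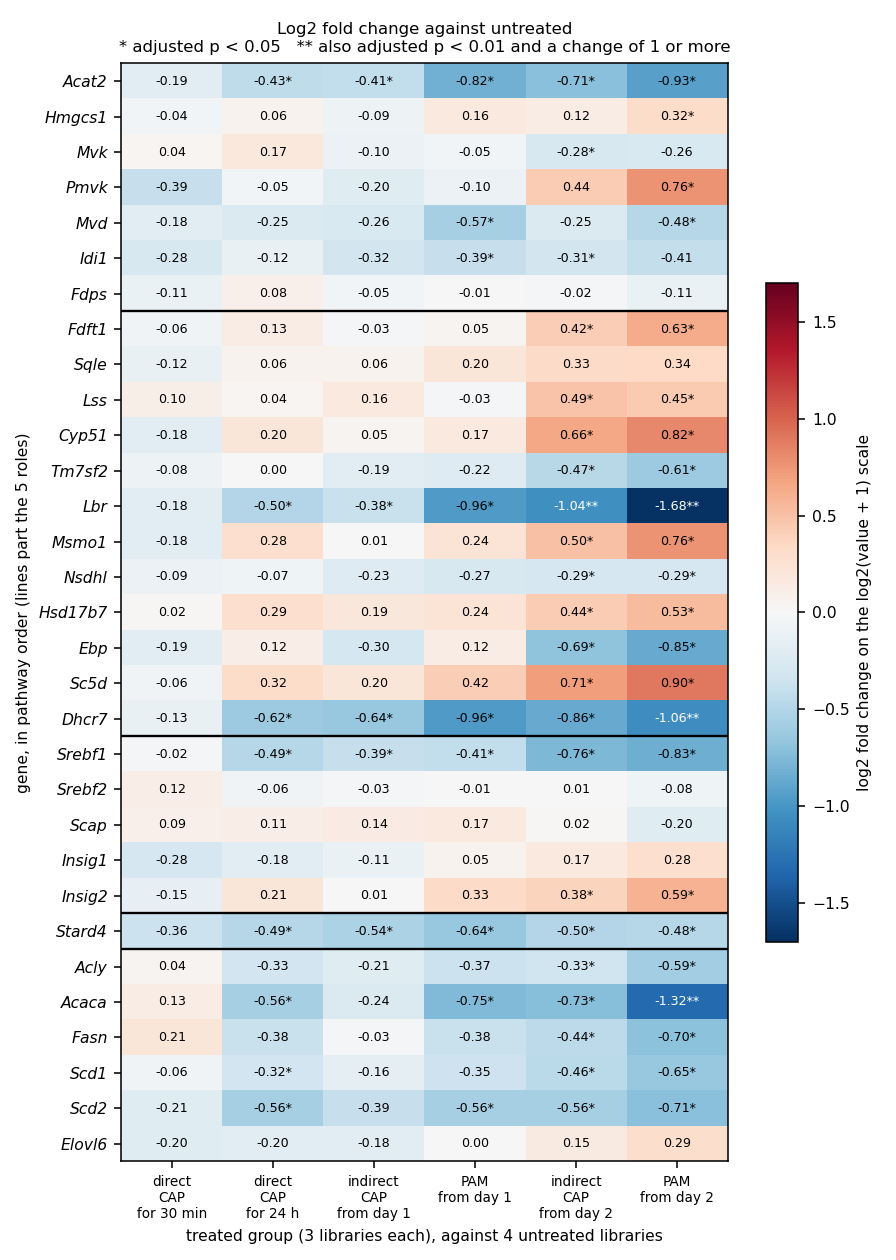
Log2 fold change of the 31 genes (rows, in pathway order, with black lines between the 5 roles) in the 6 treated groups (columns, 3 libraries each) against 4 untreated libraries, with red for higher and blue for lower. The day 2 columns hold both colours in the block from Fdft1 to Dhcr7, from 0.90 for Sc5d to -1.68 for Lbr with PAM, and the column for 30 min holds no star.

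Among the 7 genes of the mevalonate steps, PAM from day 2 raised 2 and lowered 2, where 18.5% of all genes rose and 29.1% fell. Indirect CAP from day 2 lowered 3, where 23.5% of all genes fell. Acat2, the cytosolic thiolase that joins 2 acetyl-CoA units, was called lower in every group but that of 30 min. The call with direct CAP for 24 h was lost when any library but treated line 4 was left out and with line as a block (adjusted p = 0.0562). Its untreated values were 3492, 3586, 3326 and 3751 in lines 1 to 4, and with PAM from day 2 it was at 2408, 1726 and 1552 in lines 1, 2 and 4, so that the groups did not overlap. The log2 fold change was -0.93 ± 0.15 (SE; adjusted p = 0.00182), and -0.55 ± 0.13 (adjusted p = 0.0058) over the 9 libraries of day 1.

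Hmgcs1, the cytosolic synthase of the next step, was at 9713, 9377, 9886 and 10277 in the untreated libraries. In lines 1, 2 and 4 it was 8501, 8096 and 12584 after 30 min and 7979, 9160 and 14595 after 24 h of direct CAP. Indirect CAP gave 8022, 8053 and 12221 from day 1 and 9132, 11230 and 11896 from day 2, and PAM gave 9795, 9717 and 13864 from day 1 and 11503, 13954 and 11379 from day 2. The line 4 library was the highest of its group in 5 of 6 treated groups, and with PAM from day 2 all 3 libraries lay above all untreated ones. It rose there by 0.32 ± 0.10 (adjusted p = 0.0326), a call that was lost without any 1 of the untreated libraries or the treated library of line 2, and with line as a block (adjusted p = 0.104). Over the 9 libraries of day 1 the difference was 0.04 ± 0.16 (adjusted p = 0.856; 95% interval -0.30 to 0.39).

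Pmvk, phosphomevalonate kinase, rose with PAM from day 2. It was at 842, 975, 1171 and 1258 untreated and 760, 699 and 973 after 30 min of direct CAP. The other day 1 groups held 923, 790 and 1425 (direct CAP for 24 h), 858, 823 and 1072 (indirect CAP) and 845, 956 and 1167 (PAM). From day 2, indirect CAP gave 1191, 1476 and 1625, and PAM gave 1501, 2050 and 1824. The PAM libraries lay above the untreated range, with a log2 fold change of 0.76 ± 0.17 (adjusted p = 0.007), and indirect CAP did not pass the test (0.44 ± 0.16, adjusted p = 0.0543). With the line as a replicate block the latter was called (0.49 ± 0.09, adjusted p = 0.0101).

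Idi1, which isomerises isopentenyl diphosphate, fell in other groups. Its untreated values were 1350, 1503, 1555 and 1581. In lines 1, 2 and 4 it was at 1244, 1144 and 1318 after 30 min and 1268, 1094 and 1866 after 24 h of direct CAP. Indirect CAP gave 1128, 1081 and 1414 from day 1 and 1245, 1132 and 1239 from day 2, and PAM gave 1062, 1080 and 1286 from day 1 and 1353, 1290 and 821 from day 2. It fell with PAM from day 1 and with indirect CAP from day 2, where all libraries were below the untreated ones (-0.39 ± 0.10, adjusted p = 0.0129, and -0.31 ± 0.08, adjusted p = 0.0149). The second call was lost without treated line 2, and with line as a block (adjusted p = 0.0543). After 30 min of direct CAP all 3 were below them too, but the test was not passed (-0.28 ± 0.09, adjusted p = 0.119).

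Mvd, mevalonate diphosphate decarboxylase, fell with PAM from either day, with a log2 fold change of -0.57 ± 0.17 from day 1 and -0.48 ± 0.10 from day 2 (adjusted p = 0.0253 and 0.00519). The day 1 call was lost without untreated line 1 or 4 or treated line 1 or 2. In the latter group the 3 libraries held 1558, 1555 and 1295 against 2113, 1954, 1973 and 2153 untreated. Mvk, mevalonate kinase, fell with indirect CAP from day 2 (-0.28 ± 0.07, adjusted p = 0.0114), and its value with PAM from day 2 was close to that (-0.26 ± 0.11) but did not pass the test (adjusted p = 0.0844). With the line as a replicate block the first was not called either (adjusted p = 0.0504). Fdps, farnesyl diphosphate synthase, stayed uncalled in all groups, with log2 fold changes between -0.11 and 0.08.

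The 12 enzymes from squalene to cholesterol divided into rises and falls. In both day 2 groups Fdft1, Lss, Cyp51, Msmo1, Hsd17b7 and Sc5d rose and Tm7sf2, Lbr, Nsdhl, Ebp and Dhcr7 fell, and Sqle was the 1 member not called. Beside them, 20.3% and 18.5% of all genes rose and 23.5% and 29.1% fell with indirect CAP and PAM. In the pooled day 1 libraries only Lbr and Dhcr7 of the 12 were called, both lower.

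**Figure D2:**
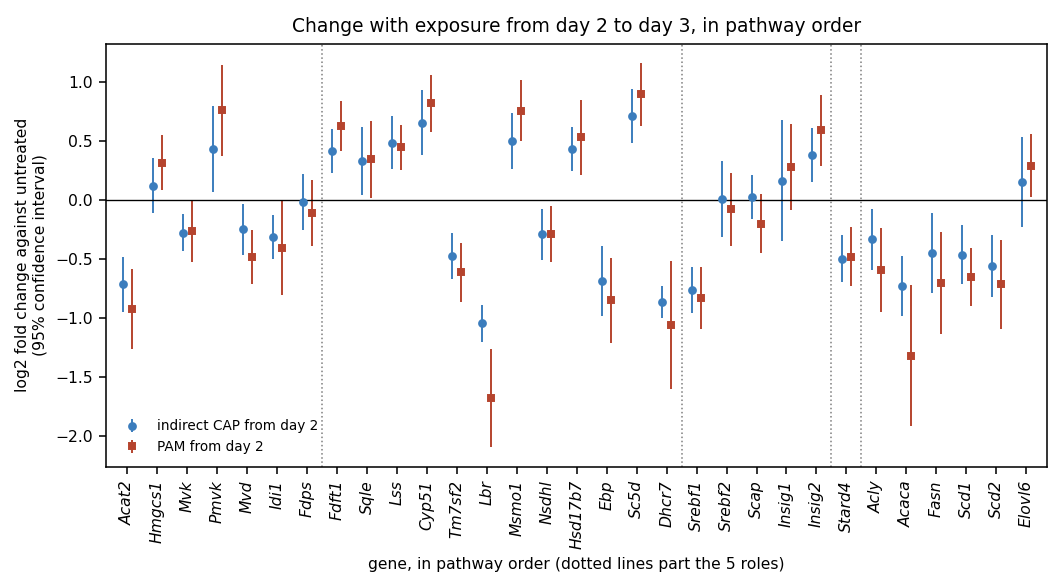
Log2 fold change against 4 untreated libraries with its 95% confidence interval for indirect CAP from day 2 (blue circles, 3 libraries) and PAM from day 2 (red squares, 3 libraries), with genes in pathway order along the horizontal axis. Between Fdft1 and Dhcr7 the points alternate from above to below the zero line, with PAM at 0.82 for Cyp51, -1.68 for Lbr, 0.90 for Sc5d and -1.06 for Dhcr7.

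Sc5d, the desaturase that acts just before the last reduction, showed the largest rise. The gene spans chr9:42251595-42264256 (minus strand, GRCm38). It was at 2205, 2830, 2507 and 2463 in untreated lines 1 to 4 and at 4421, 5266 and 4281 in lines 1, 2 and 4 with PAM from day 2. Indirect CAP from day 2 gave 3685, 4238 and 4340. Each of these 6 libraries was above the highest untreated value, and the log2 fold changes were 0.90 ± 0.12 (adjusted p = 0.00078) and 0.71 ± 0.10 (adjusted p = 0.00091), or 186% and 164% of untreated. From day 1, PAM gave 2600, 3524 and 4014, with line 1 inside the untreated range (0.42 ± 0.15, adjusted p = 0.0549).

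Cyp51, lanosterol demethylase, followed the same order of groups. Its values were 6736, 7457, 7451 and 8386 untreated in lines 1 to 4, 10046, 11809 and 13866 with indirect CAP from day 2 and 12030, 13996 and 13701 with PAM from day 2, without overlap. Direct CAP for 24 h gave 7376, 7118 and 12092, where line 4 alone was above the controls. The log2 fold changes were 0.82 ± 0.11 with PAM (adjusted p = 0.000774), 0.66 ± 0.12 with indirect CAP (adjusted p = 0.00324) and 0.14 ± 0.15 over the day 1 libraries (adjusted p = 0.508).

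Msmo1, which oxidises the methyl groups removed after that step, was at 3369, 3933, 3921 and 4088 untreated and 5702, 7264 and 6517 with PAM from day 2 (0.76 ± 0.11, adjusted p = 0.00134). Fdft1, squalene synthase, the step that commits the route to sterols, was tightly grouped at 3264, 3364, 3255 and 3440 untreated. It was 4073, 4329 and 4965 with indirect CAP and 4690, 5084 and 5712 with PAM from day 2, a rise of 0.42 ± 0.08 and 0.63 ± 0.09 (adjusted p = 0.00411 and 0.00122). The treated ranges of both genes lay above the untreated ones. Lss, lanosterol synthase, and Hsd17b7, the ketosteroid reductase of demethylation, rose by 0.44 to 0.53 on the log2 scale in these groups, with adjusted p from 0.00321 (Lss with PAM) to 0.015 (Hsd17b7 with PAM).

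Sqle, squalene epoxidase, is often described as rate-limiting in the later route. Its untreated values were 5781, 4362, 4031 and 4637, with line 1 well above the others. Direct CAP gave 3840, 4511 and 4548 after 30 min and 4147, 5165 and 5356 after 24 h. Indirect CAP gave 4157, 5163 and 5309 from day 1 and 5372, 6315 and 5926 from day 2, and PAM gave 4801, 5472 and 5867 from day 1 and 5973, 6615 and 5247 from day 2. Among treated libraries line 1 was the lowest of its group in all groups but PAM from day 2. The day 2 differences, 0.33 ± 0.13 and 0.34 ± 0.14, did not pass the test (adjusted p = 0.0617 and 0.0747).

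Lbr showed the largest fall of all 31 genes. Its product, the lamin B receptor, anchors chromatin at the inner nuclear membrane and is at the same time a sterol reductase. The gene lies at chr1:181815335-181843046 (minus strand, GRCm38). The untreated libraries held 4977, 4421, 4578 and 4574. Across treated lines 1, 2 and 4 it was 4469, 4624 and 3332 after 30 min and 3634, 3248 and 2962 after 24 h of direct CAP. Indirect CAP gave 4129, 3606 and 3037 from day 1 and 2328, 2262 and 2154 from day 2, and PAM gave 2747, 2337 and 2103 from day 1 and 1977, 1409 and 1088 from day 2. Every library exposed for 24 h was below every untreated one, and within each treated group but that of 30 min the order was line 1 above line 2 above line 4. The log2 fold changes were -0.50 ± 0.09, -0.38 ± 0.11 and -0.96 ± 0.10 in the 3 groups of day 1 and -1.04 ± 0.07 and -1.68 ± 0.18 in those of day 2 (adjusted p = 0.0111, 0.039, 0.000321, 4.46e-05 and 0.000434). With PAM from day 2 this left 31.2% of the untreated level. The call with indirect CAP from day 1 was lost without any library but treated line 1.

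Tm7sf2, the other reductase of the same sterol double bond, was also lower with exposure from day 2. It was at 1497, 1659, 1591 and 1701 untreated, 1206, 1045 and 1240 with indirect CAP and 1220, 981 and 975 with PAM (-0.47 ± 0.09 and -0.61 ± 0.11; adjusted p = 0.00296 and 0.00287). No group exposed from day 1 was called for it. Per kilobase of merged annotated exons, untreated Lbr (974) was above untreated Tm7sf2 (366). The divisors were 4761 and 4403 bases and count the exons of every annotated transcript. The order of the 2 genes at the length of the transcripts in use was not tested.

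Dhcr7, the reductase that makes cholesterol from its last precursor, lies at chr7:143823145-143848410 (plus strand, GRCm38). It was tightly grouped when untreated, at 2963, 2914, 3008 and 2895. It was 2880, 2710 and 2496 after 30 min and 1939, 2052 and 1766 after 24 h of direct CAP. Indirect CAP gave 1901, 1863 and 1911 from day 1 and 1596, 1612 and 1659 from day 2, and PAM gave 1252, 1679 and 1661 from day 1 and 1745, 1836 and 880 from day 2. The libraries exposed for 24 h all lay below the untreated ones, and line 4 with PAM from day 2 stood apart below the rest. It had the largest change of the pooled day 1 comparison (-0.74 ± 0.11, adjusted p = 0.000338; 2945 ± 50.8 untreated, SD, n = 4) and fell with PAM from day 2 (-1.06 ± 0.24; adjusted p = 0.00745). Without that line 4 library the change was -0.72, under the study's minimum. Dhcr7 was also no longer past the study's threshold without any 1 of the untreated libraries.

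Ebp, the isomerase 2 steps earlier, fell in both day 2 groups. It was 1405, 1652, 1754 and 1703 untreated, 1488, 1225 and 1593 after 30 min and 1837, 1424 and 2077 after 24 h of direct CAP. Indirect CAP gave 1256, 1153 and 1591 from day 1 and 1047, 832 and 1178 from day 2, and PAM gave 1813, 1680 and 1806 from day 1 and 1130, 729 and 884 from day 2. The day 2 libraries were all below the untreated range, whereas 2 of the 3 of PAM from day 1 were above it. The changes from untreated were -0.69 ± 0.13 and -0.85 ± 0.16 from day 2 (adjusted p = 0.00364 and 0.00331) and 0.12 ± 0.09 with PAM from day 1 (adjusted p = 0.334). Nsdhl, the decarboxylase of the demethylation steps, fell slightly in both day 2 groups (-0.29 ± 0.09 and -0.29 ± 0.10; adjusted p = 0.0358 and 0.0499), each lost without any library but untreated line 1 or treated line 4 (indirect CAP) or line 1 (PAM), and with line as a block (adjusted p = 0.0961 and 0.164).

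**Figure D3:**
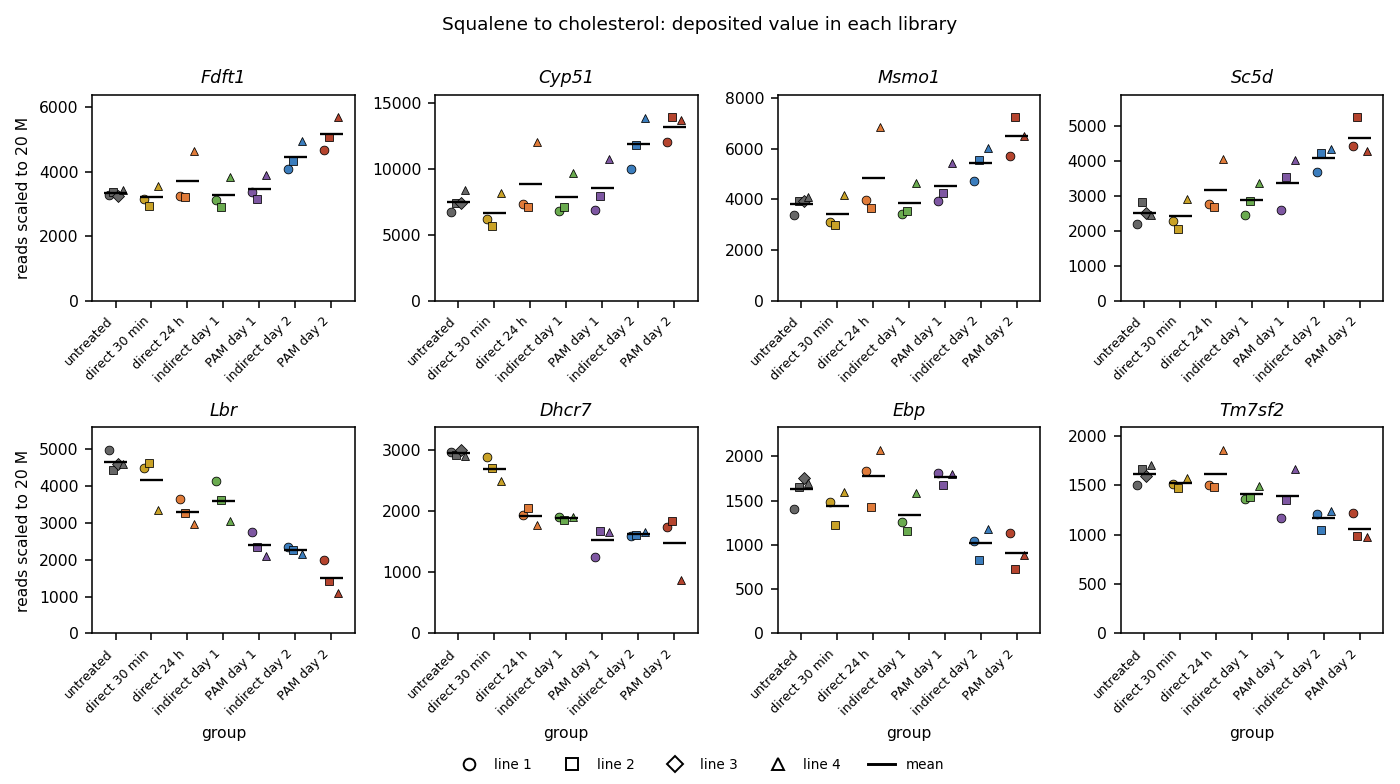
Deposited value (reads scaled to 20 M, vertical axis from 0) of 8 enzymes in each of the 22 libraries by group, with the marker shape for the organoid line and a bar for the group mean. The top row (Fdft1, Cyp51, Msmo1, Sc5d) is highest with exposure from day 2, with Sc5d between 3685 and 5266 there against 2205 to 2830 untreated, and in the bottom row Lbr, Ebp and Tm7sf2 have their lowest means there, while Dhcr7 is low in all groups exposed for 24 h.

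Promoter sequences are shown for 3 members that rose with PAM from day 2 and for Lbr, which fell most, since the factors that read sterol levels bind such sequences. They are RefSeq windows on GRCm38.p6 from 250 bases before to 50 after the start, 5′ to 3′ on the gene's strand. The table held a window for 25 of the 31 members. Capitals mark the core of the sterol response element (CACNCCAC), the E-box (CACGTG) and the CCAAT box (CCAAT), each on either strand, so a CCAAT box on the other strand reads ATTGG. The windows are chr5:4104648-4104947 (minus strand) for Cyp51, chr9:42264251-42264550 (minus strand) for Sc5d, chr13:119690101-119690400 (plus strand) for Hmgcs1 and chr1:181842352-181842651 (minus strand) for Lbr.
Cyp51: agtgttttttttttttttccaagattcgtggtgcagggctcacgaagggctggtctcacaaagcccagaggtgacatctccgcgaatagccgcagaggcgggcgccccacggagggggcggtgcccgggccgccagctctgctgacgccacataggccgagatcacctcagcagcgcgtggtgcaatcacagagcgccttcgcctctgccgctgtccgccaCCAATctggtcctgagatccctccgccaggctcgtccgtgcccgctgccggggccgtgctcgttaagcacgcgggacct
Sc5d: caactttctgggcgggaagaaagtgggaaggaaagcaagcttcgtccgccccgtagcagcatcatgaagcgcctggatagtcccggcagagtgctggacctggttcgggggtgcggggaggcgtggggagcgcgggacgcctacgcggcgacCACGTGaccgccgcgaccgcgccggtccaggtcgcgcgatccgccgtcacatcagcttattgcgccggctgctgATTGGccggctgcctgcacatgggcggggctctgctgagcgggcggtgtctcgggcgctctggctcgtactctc
Hmgcs1: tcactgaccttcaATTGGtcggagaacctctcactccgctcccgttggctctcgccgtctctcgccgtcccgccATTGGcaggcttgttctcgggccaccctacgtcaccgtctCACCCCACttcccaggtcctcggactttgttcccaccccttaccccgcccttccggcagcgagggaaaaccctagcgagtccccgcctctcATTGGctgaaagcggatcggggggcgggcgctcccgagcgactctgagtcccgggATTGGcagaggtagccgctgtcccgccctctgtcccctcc
Lbr: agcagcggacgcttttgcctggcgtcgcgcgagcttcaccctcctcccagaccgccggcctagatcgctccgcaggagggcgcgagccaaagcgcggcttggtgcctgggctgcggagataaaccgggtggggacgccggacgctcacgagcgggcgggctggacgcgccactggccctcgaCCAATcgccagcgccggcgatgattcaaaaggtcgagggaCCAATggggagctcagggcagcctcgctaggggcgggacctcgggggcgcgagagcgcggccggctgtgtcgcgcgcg

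A gene was counted as holding a motif when any of its windows in the table did, and Dhcr7, for example, has 3 windows. A CCAAT box was present for 21 of the 25 members (84.0%), and for 41.1% of all 27025 genes of the table. It was in 8 of 8 members that rose with PAM from day 2 and in 9 of 11 that fell, so both kinds carried it. The sterol core was found for Acat2, Hmgcs1 and Insig1 (12.0%, and 7.12% of all genes). The E-box was in 5 of 25 members (20.0%, and 8.09% of all genes), and the GC box (GGGCGG on either strand) in 21 of 25 (84.0%, and 38.2%). Matches were counted for each motif on its own, wherever they overlapped another. These are matches of letters in a short window, not compared at equal base composition, and do not show binding.

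Of the 5 regulators, Srebf1 fell and Insig2 rose, and the other 3 were not called in any group. Srebf1, which encodes the factor better known for fatty acid genes, was 5634, 5165, 4690 and 5133 untreated. In lines 1, 2 and 4 it was 5382, 5272 and 4643 after 30 min and 3966, 4169 and 2995 after 24 h of direct CAP. Indirect CAP gave 3968, 3989 and 3812 from day 1 and 3188, 3136 and 2794 from day 2, and PAM gave 3976, 3990 and 3623 from day 1 and 3197, 3056 and 2475 from day 2. The 30 min group overlapped the untreated libraries and the other 5 groups did not. The log2 fold change was -0.43 ± 0.08 over the day 1 libraries (adjusted p = 0.00212), -0.76 ± 0.08 with indirect CAP from day 2 (adjusted p = 0.000295) and -0.83 ± 0.11 with PAM from day 2 (adjusted p = 0.000999). The values sum its transcripts and do not tell its isoforms apart.

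Srebf2, which encodes the factor better known for sterol genes, held 11203, 8081, 7971 and 8325 untreated. It was at 8873, 10700 and 9183 after 30 min and 8398, 10538 and 6857 after 24 h of direct CAP. Indirect CAP gave 7838, 9401 and 8667 from day 1 and 8313, 10236 and 8168 from day 2, and PAM gave 8639, 9717 and 8029 from day 1 and 7986, 8782 and 8269 from day 2. Line 1 was the high library among the untreated, while line 2 was the highest in all 6 treated groups. No group was called, and the 95% intervals of the log2 fold change were -0.28 to 0.21 over the day 1 libraries, -0.31 to 0.33 with indirect CAP and -0.39 to 0.23 with PAM from day 2. Scap, the escort, also lay near its untreated level in all groups, with log2 fold changes between -0.20 and 0.17.

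Insig2 was 819, 980, 967 and 917 untreated, 1058, 1288 and 1256 with indirect CAP and 1266, 1679 and 1254 with PAM from day 2 (0.38 ± 0.10 and 0.59 ± 0.13; adjusted p = 0.0156 and 0.00717), without overlap. The call with indirect CAP was lost without treated line 2 or 4. Insig1, the paralog known as a target of SREBP itself, ranged widely between lines. It was 7797, 8611, 8012 and 9432 untreated. Across treated lines 1, 2 and 4 it was 6148, 5598 and 9741 after 30 min and 5711, 6275 and 11591 after 24 h of direct CAP. Indirect CAP gave 6019, 7218 and 10913 from day 1 and 6179, 10514 and 13054 from day 2, and PAM gave 5540, 8529 and 14215 from day 1 and 8496, 13366 and 9564 from day 2. Line 4 exceeded line 1 in all 6 treated groups, and no group was called (log2 fold changes from -0.28 to 0.28).

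Stard4, a soluble carrier that moves cholesterol between membranes, was lower by a similar amount in all 5 groups exposed for 24 h. It was at 6476, 6995, 6316 and 6829 untreated, between 4071 and 4875 in the 9 libraries of day 1 and between 4067 and 5266 in the 6 of day 2, without overlap with the controls. The log2 fold change was -0.55 ± 0.07 over the day 1 libraries (adjusted p = 0.000113), -0.50 ± 0.09 for indirect CAP and -0.48 ± 0.11 for PAM started at day 2 (adjusted p = 0.00245 and 0.00815). With direct CAP for 30 min its 3 libraries, 5535, 5221 and 4817, were below all untreated ones, but the test was not passed (-0.36 ± 0.08, adjusted p = 0.102).

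In fatty acid synthesis 5 of 6 genes fell in both day 2 groups and Elovl6, the elongase of palmitate, was not called in any group (log2 fold changes from -0.20 to 0.29). Of all genes 23.5% fell with indirect CAP and 29.1% with PAM. In the pooled day 1 libraries 3 of 6 fell (Acly, Acaca and Scd2), where 18.7% of all genes did. Acaca, the carboxylase that makes malonyl-CoA, fell most. Its gene is at chr11:84129672-84401651 (plus strand, GRCm38). It was 3360, 2628, 2725 and 2511 untreated. In lines 1, 2 and 4 it was 3425, 3203 and 2575 after 30 min and 2102, 2161 and 1485 after 24 h of direct CAP. Indirect CAP gave 2636, 2298 and 2172 from day 1 and 1840, 1673 and 1556 from day 2, and PAM gave 1960, 1464 and 1590 from day 1 and 1637, 1219 and 700 from day 2. Line 4 with PAM from day 2 was the lowest of the 22 libraries. The log2 fold change was -1.32 ± 0.26 with PAM from day 2 (adjusted p = 0.00451), -0.73 ± 0.11 with indirect CAP from day 2 (adjusted p = 0.0014) and -0.52 ± 0.15 over the day 1 libraries (adjusted p = 0.0169). With PAM from day 2 Acaca was no longer past the study's threshold without any 1 of the untreated libraries or treated line 2 or 4. Without treated line 4 the change there was -0.98, under the study's minimum. The day 1 call was lost without the untreated library of line 1.

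Fasn, fatty acid synthase, was 22801, 15576, 15188 and 18110 untreated, with line 1 the highest. It was at 21820, 19721 and 19673 after 30 min and 14866, 14511 and 11576 after 24 h of direct CAP. Indirect CAP gave 18665, 15694 and 17854 from day 1 and 14398, 12070 and 12614 from day 2, and PAM gave 16862, 10793 and 13710 from day 1 and 13697, 10542 and 8929 from day 2. All 6 day 2 libraries were below the lowest untreated library. The changes were -0.44 ± 0.15 with indirect CAP and -0.70 ± 0.19 with PAM (log2 fold change; adjusted p = 0.0394 and 0.0166). Acly, which supplies cytosolic acetyl-CoA from citrate, fell in the same groups (-0.33 ± 0.11 and -0.59 ± 0.15; adjusted p = 0.0404 and 0.0145). With indirect CAP the call of Acly was lost without any library but untreated line 2 or 3, and that of Fasn without untreated line 4 or treated line 2 or 4. In the pooled day 1 libraries the call of Acly was lost without untreated line 1 or 4.

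Scd1 and Scd2 introduce the double bond of oleate. Scd1 was 5605, 4828, 4944 and 5109 untreated. Across treated lines 1, 2 and 4 it held 4965, 4496 and 5242 after 30 min and 3760, 4036 and 4485 after 24 h of direct CAP. Indirect CAP gave 4021, 3983 and 6008 from day 1 and 3121, 3901 and 4208 from day 2, and PAM gave 3315, 3514 and 5560 from day 1 and 3517, 3462 and 2837 from day 2. From day 1 line 4 stayed above all untreated libraries with indirect CAP and inside their range with PAM, while lines 1 and 2 were below. With direct CAP for 24 h its call was lost without any library but treated line 4 and with line as a block (adjusted p = 0.119). It fell in both day 2 groups (-0.46 ± 0.11 and -0.65 ± 0.11; adjusted p = 0.0102 and 0.00195).

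Scd2 was the member with the most reads, 37936, 35453, 30520 and 33105 untreated. It was at 32098, 26961 and 29818 after 30 min and 22958, 20970 and 25881 after 24 h of direct CAP. Indirect CAP gave 24779, 21782 and 32558 from day 1 and 20484, 23636 and 25661 from day 2, and PAM gave 22824, 18251 and 29791 from day 1 and 24619, 22897 and 16047 from day 2. The groups of direct CAP for 24 h, PAM from day 1 and both day 2 media lay below all untreated libraries. Its call with PAM from day 1 was lost without any library but untreated line 3 or treated line 4. The log2 fold changes were -0.50 ± 0.13 over the day 1 libraries (adjusted p = 0.011), -0.56 ± 0.12 and -0.71 ± 0.16 in the day 2 groups (adjusted p = 0.00529 and 0.00879).

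**Figure D4:**
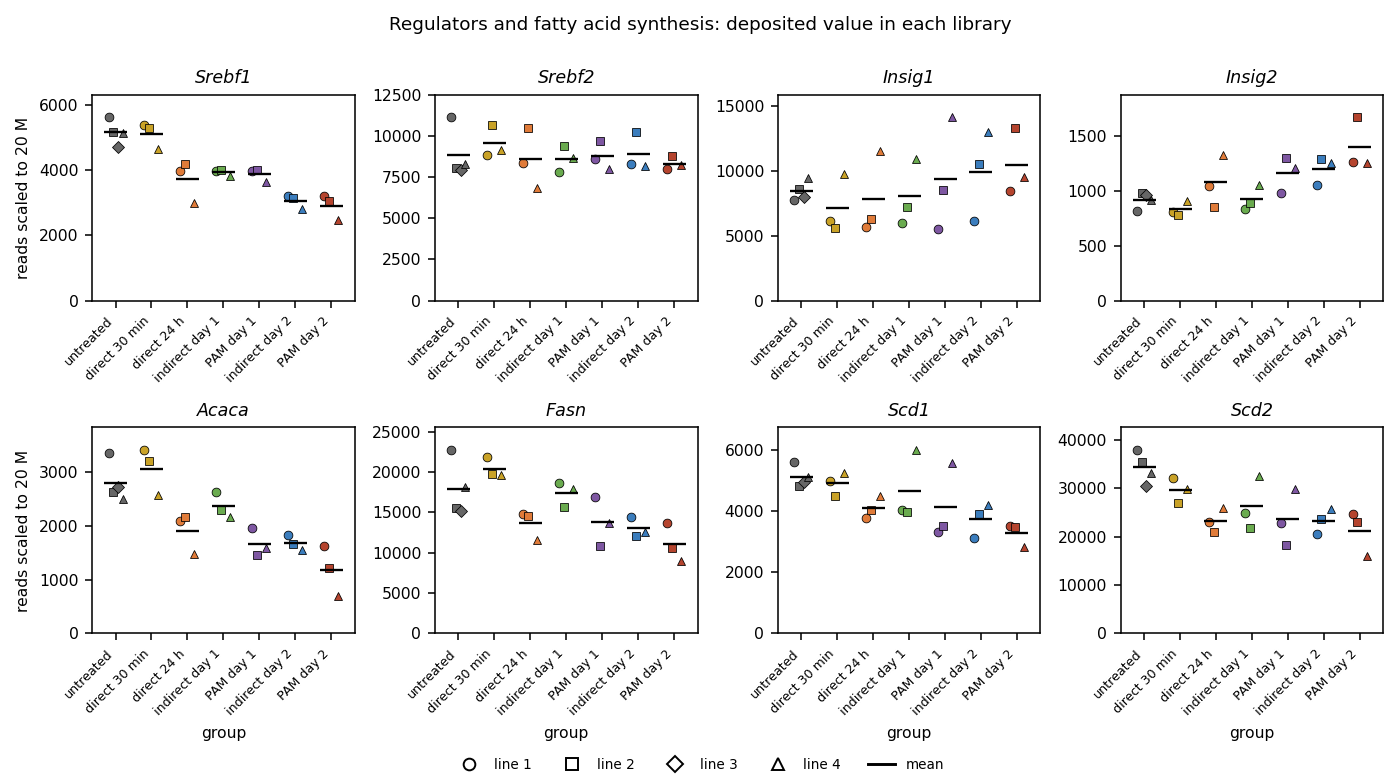
Deposited value (reads scaled to 20 M, vertical axis from 0) of 4 regulators (top) and 4 genes of fatty acid synthesis (bottom) in each of the 22 libraries by group, with the marker shape for the organoid line and a bar for the group mean. Srebf1 is lower in the 5 groups exposed for 24 h (2475 to 4169) than untreated (4690 to 5634), Srebf2 overlaps its untreated values in every group, and Insig1 spreads from 5540 to 14215 within PAM from day 1.

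Treated groups were also compared with each other, which uses no untreated library. Day 2 libraries were collected at the end of exposure to medium made the day before. Day 1 libraries were exposed to freshly made treated medium and collected after further culture in fresh medium. Start day, age of the treated medium and time since exposure therefore cannot be told apart. Starting indirect CAP at day 2 instead of day 1 left 1 member called, Lbr, which was lower (log2 difference -0.66 ± 0.12, adjusted p = 0.0384), where 2.21% of the 17987 genes tested were lower. That call was lost without any of the 6 libraries but line 4 from day 1. No member was called between PAM from day 2 and from day 1, where 0.0% of 17354 genes were, although 10 members and 4651 genes in all had an unadjusted p under 0.05. The largest difference there was that of Ebp (-0.97 ± 0.17, adjusted p = 0.0553). PAM from day 1 compared with direct CAP for 24 h called no member, with 0.258% of 17072 genes called and Lbr at -0.46 ± 0.14 (adjusted p = 0.408). The comparison of indirect CAP from day 1 with the same direct CAP group called none either, with 0.0% of 17672 genes called and Ebp at -0.41 ± 0.18 (adjusted p = 0.629). In each of these last comparisons 1 member had an unadjusted p under 0.05, as had 1773 and 1228 genes in all.

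The same 3 mice recur in these groups, and taking the line as a replicate block changed the day 2 against day 1 comparisons. For indirect CAP 10 members were then higher from day 2 (32.3%, where 9.27% of all genes were) and 9 lower (29.0%, where 14.3% were). The higher were Pmvk, Fdft1, Sqle, Lss, Cyp51, Msmo1, Hsd17b7, Sc5d, Insig2 and Elovl6, among them Pmvk at 0.64 ± 0.09 (adjusted p = 0.000929) and Cyp51 at 0.61 ± 0.08 (adjusted p = 0.000602). The lower were Acat2, Tm7sf2, Lbr, Ebp, Dhcr7, Srebf1, Acaca, Fasn and Scd1, among them Lbr at -0.66 ± 0.08 (adjusted p = 0.000439) and Acaca at -0.49 ± 0.07 (adjusted p = 0.00119). For PAM 3 were higher (Pmvk, Fdft1 and Cyp51, 9.68%, where 3.61% of all genes were) and 2 lower (Lbr and Ebp, 6.45%, where 6.99% were). Srebf2, Scap, Insig1, Fdps and Hmgcs1 were not called in either.

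Differences between lines were large for some members. The line 4 library was the highest of its group in at least 5 of the 6 treated groups for 14 of 31 members, Fdft1 in all 6. The same count was not made over all genes, so it cannot be read as a trait of the members. After direct CAP for 24 h, Cyp51 was 7376, 7118 and 12092 and Msmo1 3990, 3666 and 6841 in lines 1, 2 and 4. Line 4 was also the highest of the untreated libraries for both, at 8386 and 4088, but the next lines followed at 7457 and 3933. Line 1 was the highest in 5 or 6 treated groups for Lbr, Scap, Acaca and Fasn. These are descriptions of 1 mouse each. By the labels line 4 was at passage 4 and lines 1 and 2 at passages 12 and 14. The study lists the lines at passages 12 and 14 as male and the other lines of this experiment as female. Mouse, passage and sex therefore cannot be told apart.

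Other genes of the pathway were taken from lists set by function, also with earlier results of these data known. Of 28 further sterol and fatty acid genes, 25 were tested with PAM from day 2, and 1 rose and 5 fell past the study's threshold. Of all 17694 genes tested there, 1206 rose and 1857 fell past it. The largest were Fads1 at -2.83 ± 0.31 (adjusted p = 0.000434), Acat1 at -2.63 ± 0.33 and Fads2 at -2.46 ± 0.22. Fads1 and Fads2 desaturate polyunsaturated fatty acids and Acat1 is the mitochondrial thiolase. In the day 1 libraries 3 of 25 fell past the threshold and none rose, where 383 of all 18490 genes fell and 790 rose. They were Fads1 at -2.19 ± 0.42, Acat1 at -1.04 ± 0.20 and Fads2 at -1.27 ± 0.18. Among 23 genes of sterol export, storage and uptake 22 were tested, and 3 rose (Vldlr, Apob and Lipa) and 1 fell (Soat1) past the threshold with PAM from day 2. Vldlr, a lipoprotein receptor, was at 2.41 ± 0.33 there (adjusted p = 0.000996) and at 2.10 ± 0.21 in the day 1 libraries, where 2 rose and none fell. Cyp27a1, which makes an oxysterol from cholesterol, was at 3.05 ± 0.33 (adjusted p = 4.4e-05) in the day 1 libraries and at 1.61 ± 0.51 with PAM from day 2, the latter not past the threshold (adjusted p = 0.0312). Next in size were Nr1h3, a sterol-sensing nuclear receptor, at -0.82 ± 0.16 in the day 1 libraries and Mylip, a ligase that targets lipoprotein receptors, at -1.35 ± 0.43 with PAM from day 2, neither past the threshold (adjusted p = 0.00182 and 0.0331).

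Cell type markers moved with the treatment. The summed value of 5 stem cell markers was 32557 to 38876 untreated. After direct CAP for 30 min it was 20274 to 32015, below all untreated libraries, although none of these markers was called. It was 5313 to 10861 after direct CAP for 24 h, 5936 to 15040 with indirect CAP and 1306 to 2640 with PAM from day 1. With the same media from day 2 it was 2703 to 3953 and 757 to 2747. The sum of 8 proliferation genes was 26589 to 34202 untreated and 23040 to 31978 after direct CAP for 30 min. It was 13670 to 25319 in the day 1 groups of 24 h, 10035 to 12449 with indirect CAP and 4968 to 9817 with PAM from day 2. The 9 enterocyte markers summed to 104157 to 122672 untreated, 99717 to 121148 with indirect CAP and 140060 to 186725 with PAM from day 2, although 8 and 7 of the 9 had a log2 fold change below 0 in these groups. Sums of 4 Paneth markers were 20896 to 29593 untreated and 3686 to 16554 with PAM from day 2, those of 4 goblet markers 14045 to 22533 and 4434 to 13885 (15206 to 55610 in the day 1 groups of 24 h), those of 3 enteroendocrine markers 1673 to 2779 and 2693 to 4563, and those of 3 tuft markers 84 to 133 and 38 to 68. The part of these shifts in the members' changes was not tested, and in bulk RNA fewer cells of a type and less RNA per cell cannot be told apart.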

How the data were processed

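RNA from 22 mouse duodenal organoid cultures was sequenced as paired-end reads of 100 bases. Per the submitters' processing notes and the study's methods, reads were trimmed with Trimmomatic 0.36, aligned with STAR 2.5.3a to GRCm38.p4 (mm10) and counted per gene with HTSeq 0.9.1 against Ensembl release 90. Deposited by the authors was a score for each gene and library: counts scaled to 20 M per library and rounded to whole numbers, not divided by gene length. They are therefore no raw counts, and a log-scale test was used in place of the count test. The table gives no library totals, so depth was estimated from the spacing of low values (19.38 to 28.68 M reads).

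Groups follow the labels. Genes with a value of at least 10 in at least 3 of the libraries compared were tested with limma 3.58.1 (R 4.3.3, trended variance) on log2(value + 1), using only the groups compared, with Benjamini-Hochberg adjustment over all genes tested. Fold changes are on that scale and understate changes of low genes. A gene is past the study's threshold when its adjusted p is under 0.01 and its log2 fold change is 1 or more in size. A second rule, an adjusted p under 0.05, serves for counts of members. Each library is 1 organoid line, so p-values measure the spread between these libraries. The 9 libraries of the pooled day 1 comparison come from only 3 lines and are not independent, so its p-values without the block may be too small.

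Same-numbered samples were taken as the same line and mouse by their title codes. For line 4 this is an inference, since the untreated code is 2-20 and the treated code 2. Residuals of the same line in different groups correlated at a median of 0.536 (63 pairs, lowest -0.049) and those of different lines at -0.306 (144 pairs), and among treated groups every same-line pair was at 0.219 or above, so the line as a replicate block was fitted as an alternative. Other alternatives were quantile normalization, median-of-ratios scaling, a fit over all 7 groups, a pseudocount of 10, no filter on low values and leaving out each library. No pair of replicate libraries was a copy.

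The members and lists were chosen with earlier results of these data known. Values in every library are given by rule for Hmgcs1, Sqle, Idi1, Insig1, Srebf1, Srebf2, Fasn, Acaca, Scd1 and Scd2 and, in each comparison, for up to 5 members with the largest change past the study's threshold or, where none was, for the single largest. Values of other members, and the 4 promoters, were chosen after they had been seen. Exon lengths, with all annotated exons of a gene merged, came from the reference annotation, in which 99.7% of gene identifiers matched. Results for some genes of these pathways are not reported here. Scripts ran in Python 3.11.15 with pandas 2.3.3 and matplotlib 3.10.9, and were tested on simulated data.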

Additional observations from a re-analysis of the deposited data

Results flagged for a closer look

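In the untreated group 3 of the 31 members had 1 library set apart from the other 3 by Dixon's criterion, which chance alone meets in about 1 of 20 groups. Fdps was at 6514 in line 4 against 5214 to 5432 in the others. Nsdhl was at 2057 in line 1 against 2326 to 2373. Srebf2 was at 11203 in line 1 against 7971 to 8325. Lbr had a larger fall with indirect CAP from day 2 than from day 1, a difference of -0.66 on the log2 scale between these groups (adjusted p = 0.0384 by limma), with all 3 day 2 libraries (2154 to 2328) below all 3 day 1 libraries (3037 to 4129).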

How the results depend on the processing

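No called log2 fold change of a member changed sign under any alternative: of 1110 repeated values 937 still met their rule and 173 did not. That rule was the study's threshold for values past it in the main fit, and an adjusted p under 0.05 for the others. Some of the 173 may therefore still be called. Shares over all genes under the alternatives are not given in this section. Counting members whose adjusted p was under 0.05, whatever the size of the change, in place of the study's threshold, gave 8 in the pooled day 1 libraries, 8 after direct CAP for 24 h, 5 for indirect CAP and 9 for PAM from day 1, 22 for indirect CAP and 23 for PAM from day 2, and 1 between indirect CAP from day 2 and day 1. Members that rose numbered 1 with quantile normalization in the pooled day 1 libraries, in direct CAP for 24 h and in PAM from day 1, 1 with a pseudocount of 10 in the latter 2 groups, and 3 with median-of-ratios scaling in PAM from day 1. Members that fell numbered 3 with median-of-ratios scaling, 5 without a filter and 5 with all 7 groups in one fit for direct CAP for 24 h, 3 with all 7 groups in one fit for indirect CAP from day 1, and 5 with median-of-ratios scaling for PAM from day 1. Between indirect CAP from day 2 and day 1, 0 fell without a filter. Between PAM from day 2 and day 1, all 7 groups in one fit gave 3 higher and 5 lower, and quantile normalization 1 lower.

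With the line as a replicate block 1 member rose in the pooled day 1 libraries and 2 rose in PAM from day 1. The block gave 10 higher and 9 lower between indirect CAP from day 2 and day 1, and 3 higher and 2 lower between PAM from day 2 and day 1. It moved no other count of members by over 1.5 times. Against untreated the block ended the calls of Acat2 and Scd1 with direct CAP for 24 h, of Mvk, Idi1 and Nsdhl with indirect CAP from day 2, and of Hmgcs1 and Nsdhl with PAM from day 2. It added Mvd and Hsd17b7 in the pooled day 1 libraries, Sc5d, Insig2, Acly and Fasn in PAM from day 1, and Pmvk in indirect CAP from day 2. The untreated libraries of lines 1 and 2 did not correlate best with their own line, so blocked comparisons with untreated are less certain than those between treated groups. Leaving out both, an alternative chosen after seeing the data, leaves 2 controls and so less power. It gave 2 lower in the pooled day 1 libraries, 0 lower in direct CAP for 24 h and 2 lower in indirect CAP from day 1. In PAM from day 2 it gave 5 higher, 8 lower and 0 past the study's threshold.

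Leaving out 1 library at a time gave 0 to 2 higher (2 without line 1 of indirect CAP) and 6 to 11 lower in the pooled day 1 libraries, 3 to 8 lower in direct CAP for 24 h, 4 to 9 lower in indirect CAP from day 1, 0 to 1 past the threshold, 0 to 3 higher (3 without line 1) and 7 to 12 lower in PAM from day 1. PAM from day 2 ranged from 1 to 5 past the threshold. Between indirect CAP from day 2 and day 1 the range was 0 to 1 higher and 0 to 1 lower, and between PAM from day 2 and day 1 it was 0 to 1 higher and 0 to 2 lower. The cause of these changes was not tested.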
